A study of Mus musculus with 15 samples.

Results

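Heat shock proteins and chaperonins were followed in the retinas of mice that lack a cone photoreceptor ion channel. The set holds 47 listed genes of the HSP70, HSP110, HSP90, J-domain, BAG and small heat shock families, both kinds of chaperonin, HSP90 cochaperones, heat shock factors and Ubb. Its probes were found by gene symbol in the platform annotation of the array. No probe carried the symbol of Hspa1b, Hsp90ab1, Stub1, Hsf1 or Ubb. The other 42 genes had 57 probes, and 50 probes of 41 genes were kept because their detection p-value, the authors' measure of signal against negative controls, was under 0.01 on 5 or more of the 15 arrays. Over the whole array 13077 of 25697 probes passed the same filter. The only probe of Hspa14 was detected on 0 arrays, as was 1 further probe each of Hspa4, Dnaja1, Dnaja3, Dnajb4 and Hsp90aa1. The threshold ran between a Dnaja2 probe detected on 2 arrays and a Dnaja1 probe detected on 5.

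Molecular chaperones bind unfolded or partly folded proteins and let them fold, refold or be handed to degradation. HSP70 proteins cycle on and off their clients with the help of J-domain proteins, which load clients and trigger ATP hydrolysis, and of nucleotide exchange factors such as the BAG and HSP110 proteins. HSP90 acts later on clients such as kinases and steroid receptors, small heat shock proteins hold aggregating clients without ATP, and chaperonins enclose a client in a ring, the TRiC complex in the cytosol and the Hspd1 and Hspe1 pair in mitochondria. Heat shock factor 1 switches on many of these genes under stress through short repeated DNA motifs in their promoters. Photoreceptors renew their outer segment proteins daily, and TRiC and phosducin-like protein are known to assemble the transducin beta and gamma subunits there.

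The arrays, of an Illumina mouse expression beadchip, were hybridised with retinal RNA of 3 groups of 5 mice each on the C57bl/6 background at postnatal day 30, every array holding RNA from the 2 retinas of a single animal. All 15 animals lacked Nrl, the transcription factor needed for rod fate, so that the photoreceptors were cone-like in controls as well. The control group was Nrl-/-, and the other groups were CNGA3-/-/Nrl-/- and CNGB3-/-/Nrl-/-, named below, for short, Cnga3 double knockout and Cngb3 double knockout. Cnga3 and Cngb3 encode the cone subunits of a cGMP-gated cation channel, which carries the light-regulated current, so the design asks what changes in a cone-like retina when that channel is lost.

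Between 10302 and 13763 probes were detected per array, fewest on control replicate 3. The Nrl probe was detected on 0 of 15 arrays. The Cngb3 probe lay between 6.68 and 7.24 (normalized log2 intensity, the scale of all levels below) in the Cngb3 double knockout and between 8.33 and 9.56 in the Cnga3 double knockout. In the controls it was 8.58 to 10.05 on 4 arrays and 7.32 on replicate 3. The brighter Cnga3 probe had means of 8.58 in the controls, 8.30 in the Cnga3 and 8.54 in the Cngb3 double knockout, and the sources used here do not say whether it lies in the deleted part. The summed level of 13 measured cone genes was 17.05 to 17.30 in the controls. It was 16.72 to 16.97 in the Cnga3 and 16.74 to 16.97 in the Cngb3 double knockout. Single cone genes did not all fall alike. The Arr3 probe ILMN_2726271 had means of 13.12 in the controls, 10.86 in the Cnga3 and 11.47 in the Cngb3 double knockout. The other Arr3 probe was lower in both double knockouts too. Gnat2 had means of 13.16, 13.08 and 13.30 in the same order. The part of single genes in the cone sum was not tested, so that sum does not show a general fall of cone genes. The 7 vascular genes summed to 10.46 to 11.78, 11.83 to 12.17 and 11.79 to 12.32 in the same order. Pigment epithelium genes summed to 14.01 to 14.81 in the controls, 13.09 to 14.98 in the Cnga3 and 14.33 to 15.10 in the Cngb3 double knockout. Cnga3 replicate 4 held the 14.98, and the other Cnga3 arrays, up to 13.70, lay below all arrays of both other groups. Lens genes summed to 9.05 on control replicate 1 and 12.33 on control replicate 3, against 16.96 to 18.17 on the other 13 arrays. The part of these differences in the results below was not tested, except that the main results are also given without control replicates 1 and 3. In RNA of whole retinas, fewer cells of a type and less RNA per cell cannot be told apart.

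Promoters of called genes with the motif through which heat shock factors are known to act are shown, to let that motif be seen in place. RefSeq windows of 300 bases, from 250 before to 50 after each gene's start (GRCm38.p6), were held for 40 of the 47 genes, with 55 windows. The letters GAANNTTC and TTCNNGAA were searched, each reading the same on both strands, with overlapping matches counted. At least 1 match stood in the windows of 18 of the 40 genes (45%), against 17% of 27025 genes with a window, and in 20 of the 55 windows (36.4%), against 15.1% of all 32851 windows. Windows with 3 or more matches numbered 5 among these genes and 84 among all windows (0.256%). The 5 are those of Hspe1 and of 1 Hspd1 start, which overlap, 2 overlapping windows of Hsph1, and that of Chordc1, which held the most, 5, and whose probe was not called in any comparison. The matches are in capitals below, where adjoining or overlapping matches run together. Hspd1 and Hspe1 lie head to head, so that the 300 bases of Hspe1 share 285 with the window of an Hspd1 start on the opposite strand (chr1:55087883-55088182, minus strand), and 1 sequence serves for both.
Hspe1 (chr1:55087898-55088197, plus strand): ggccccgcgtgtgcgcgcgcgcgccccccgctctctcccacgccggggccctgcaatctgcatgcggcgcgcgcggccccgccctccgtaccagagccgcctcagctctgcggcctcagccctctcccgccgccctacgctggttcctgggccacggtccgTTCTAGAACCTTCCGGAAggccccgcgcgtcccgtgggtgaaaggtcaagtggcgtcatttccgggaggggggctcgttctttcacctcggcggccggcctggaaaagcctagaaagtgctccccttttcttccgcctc
Hspa1a (chr17:34972107-34972406, minus strand): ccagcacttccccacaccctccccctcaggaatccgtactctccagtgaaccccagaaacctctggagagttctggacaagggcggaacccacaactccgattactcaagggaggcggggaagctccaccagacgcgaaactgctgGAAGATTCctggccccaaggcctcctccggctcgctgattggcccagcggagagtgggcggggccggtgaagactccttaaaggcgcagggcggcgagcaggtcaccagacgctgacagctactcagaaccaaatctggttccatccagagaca
Hsph1 (chr5:149636287-149636586, minus strand): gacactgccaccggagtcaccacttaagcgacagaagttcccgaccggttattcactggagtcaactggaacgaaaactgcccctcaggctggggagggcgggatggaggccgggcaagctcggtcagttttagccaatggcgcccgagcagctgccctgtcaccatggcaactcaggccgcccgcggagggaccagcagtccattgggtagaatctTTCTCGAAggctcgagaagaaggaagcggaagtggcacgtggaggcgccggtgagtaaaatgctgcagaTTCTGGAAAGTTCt
The window of Hspe1 held 3 matches, that of Hspa1a 1 and that of Hsph1 3, while the window of a second Hspd1 start held 0. Among the other genes called below, 1 of the 2 windows of Dnajb4 held 1 match and is not shown, while the windows of Hspa4 and Tcp1 held 0. A match describes these letters only, and the absence of one says nothing about the factor.

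Loss of Cnga3 on the Nrl-null background was accompanied by a change on 6 of the 50 chaperone probes, 5 higher and 1 lower than in the Nrl-/- controls. The higher ones were the dimmer of 2 Hspd1 probes, Hspa1a, Hspa4, the dimmer of 2 Dnajb4 probes and the dimmer of 2 Tcp1 probes, at 1.72 to 2.33-fold, and the lower one was Hsph1, at 1.67-fold. After loss of Cngb3, 1 of the 50 changed, the same Hspd1 probe, 1.94-fold higher. A probe was called changed at an adjusted p under 0.05 in limma's moderated test, two-sided, with Benjamini-Hochberg adjustment over all 13077 kept probes. At that threshold 8.04% of all kept probes were called for Cnga3 (4.61% higher and 3.43% lower) and 2.68% for Cngb3 (1.44% higher and 1.25% lower), against 12% and 2% of the chaperone probes, so the chaperone shares stand near those of the whole array. The counts depended on single arrays, with 3 to 7 chaperone probes called for Cnga3 and 1 to 7 for Cngb3 when 1 array was left out, and the 7 for Cngb3 came without control replicate 1. The main fit shares 1 spread over all 3 groups. With only the Cnga3 and control arrays fitted, 323 of all kept probes were called, and 2 chaperone probes, the dimmer Hspd1 probe and Hspa1a. The others then had adjusted p in limma of 0.0974 (Hspa4), 0.0752 (Hsph1), 0.0923 (dimmer Dnajb4 probe) and 0.098 (dimmer Tcp1 probe). Both comparisons use the same 5 control arrays, so their values are set side by side without a test of likeness.

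Counted by gene, with the brightest kept probe of each, 3 of 41 genes were called for Cnga3 (Hspa1a and Hspa4 higher, Hsph1 lower) and 0 of 41 for Cngb3, against 7.29% and 2.51% of all 9097 genes counted the same way. At an unadjusted p under 0.05, 10 of the 41 genes (24.4%) passed for Cnga3 and 5 (12.2%) for Cngb3, against 24.6% and 19.7% of all genes. By probe, 15 of 50 (30%) passed that looser threshold for Cnga3 and 10 of 50 (20%) for Cngb3, against 25.8% and 20.4% of all kept probes. The median log2 fold change of the 50 probes was 0.12 for Cnga3 and 0.16 for Cngb3, while the medians over all kept probes were -0.0057 and -0.0025. The log2 fold change was above 0 on 31 and 33 of the 50 probes (62% and 66%), against 49.4% and 49.5% of all kept probes. With the brightest probe of each gene the medians were 0.062 and 0.059, above 0 for 23 and 24 of 41 genes (56.1% and 58.5%). These medians include control replicate 3, the lowest control on 31 of the 50 probes. With arrays centred on their medians in place of quantile normalization, the median over all kept probes in the Cnga3 comparison was 0.11, and the share of calls that were higher went from 57.4% to 83.4%, so small changes there are relative to the scaling. The direction of each of the 6 called probes was the same under both scalings. The size of a change on a dim probe rests on the background correction. On the deposited log2 values, which have none, the Cnga3 value of the dimmer Hspd1 probe was 0.67 in place of 1.22, of Hspa1a 0.48 in place of 0.80, of Hspa4 0.50 in place of 0.78, of the dimmer Tcp1 probe 0.51 in place of 0.90 and of the dimmer Dnajb4 probe 0.26 in place of 0.79, all still called. The plot of fold changes by role shows all 50 probes.

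**Figure D1:**
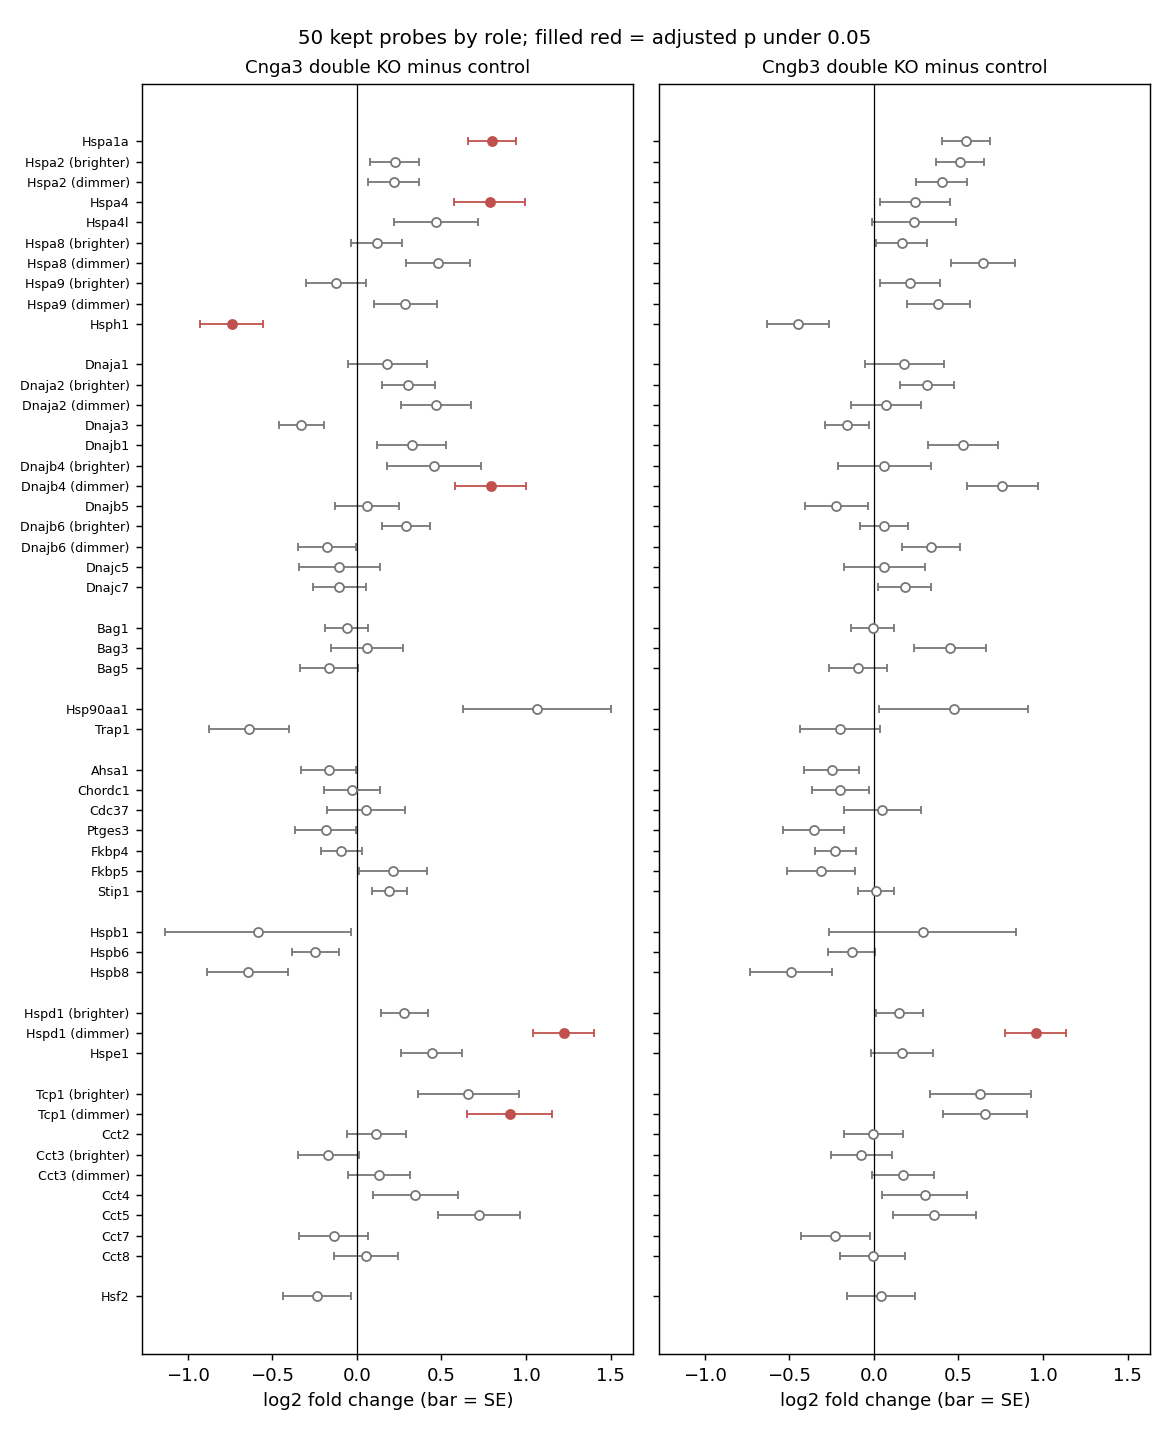
Log2 fold change of each of the 50 kept chaperone probes (horizontal axis, bars ± SE) in the Cnga3 (left) and Cngb3 (right) double knockout against the Nrl-/- controls, 5 arrays per group, grouped by role from HSP70 at the top to Hsf2 at the bottom. Filled red points are the 6 and 1 probes called at an adjusted p under 0.05, and brighter and dimmer name the probes of a gene that has 2.

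A probe of the mitochondrial chaperonin, 1 of 3, was called in both comparisons. Hspd1, also called HSP60, forms the folding ring in the mitochondrial matrix, and Hspe1, or HSP10, is the lid of that ring. The dimmer Hspd1 probe (ILMN_2639036) read 7.07, 6.47, 6.05, 6.48 and 6.81 on control replicates 1 to 5. On the Cnga3 double knockout arrays it read 7.71, 7.51, 7.69, 7.93 and 8.16, and on the Cngb3 double knockout arrays 7.56, 7.69, 7.56, 7.68 and 7.17. Every double knockout array of either kind lay above the highest control, the closest being Cngb3 replicate 5. The log2 fold change was 1.22 (SE 0.181, n = 5 arrays per group) for Cnga3, 2.33-fold, with an adjusted p of 0.00156 in limma. For Cngb3 it was 0.96 (SE 0.181), 1.94-fold, with an adjusted p of 0.0116. Both calls held in each of the 10 fits that left out 1 array of the groups compared, with adjusted p up to 0.00606 and 0.0342. Without control replicates 1 and 3 the values were 1.21 and 0.95, with adjusted p of 0.000664 and 0.00462.

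The brighter Hspd1 probe (ILMN_2713841) did not pass the test in either comparison. It read 10.69, 10.92, 10.50, 11.23 and 10.91 on the controls, 11.14, 11.002, 10.99, 11.40 and 11.13 on the Cnga3 and 11.07, 10.97, 10.79, 11.06 and 11.11 on the Cngb3 double knockout arrays. All 3 groups overlapped, and control replicate 4 was above 9 of the 10 double knockout arrays. Its log2 fold change was 0.28 (SE 0.139, adjusted p = 0.209 in limma) for Cnga3 and 0.15 (SE 0.139, adjusted p = 0.569) for Cngb3, smaller than on the dimmer probe. Without control replicates 1 and 3 it was 0.11 and -0.018, so that its sign for Cngb3 turned. The sources used here do not give where on the transcript either probe lies, so which of them follows the Hspd1 transcripts better was not tested. Hspe1 was 0.44 (SE 0.181, adjusted p = 0.135) and 0.17 (SE 0.181, adjusted p = 0.639), with means of 9.60 ± 0.273 (SD, n = 5) in controls, 10.05 ± 0.369 and 9.77 ± 0.221 and overlapping arrays. Hspd1 lies on chromosome 1, as does the targeted Cnga3, with 94 protein-coding genes between them in the RefSeq order. Hspe1, with 95 between, lies there too. Dnaja1, Bag1 and Dnajb5 lie on chromosome 4 with Cngb3, with 64, 68 and 113 between. Neither Hspe1 nor these genes were called in any comparison, and the part of position was not tested.

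**Figure D2:**
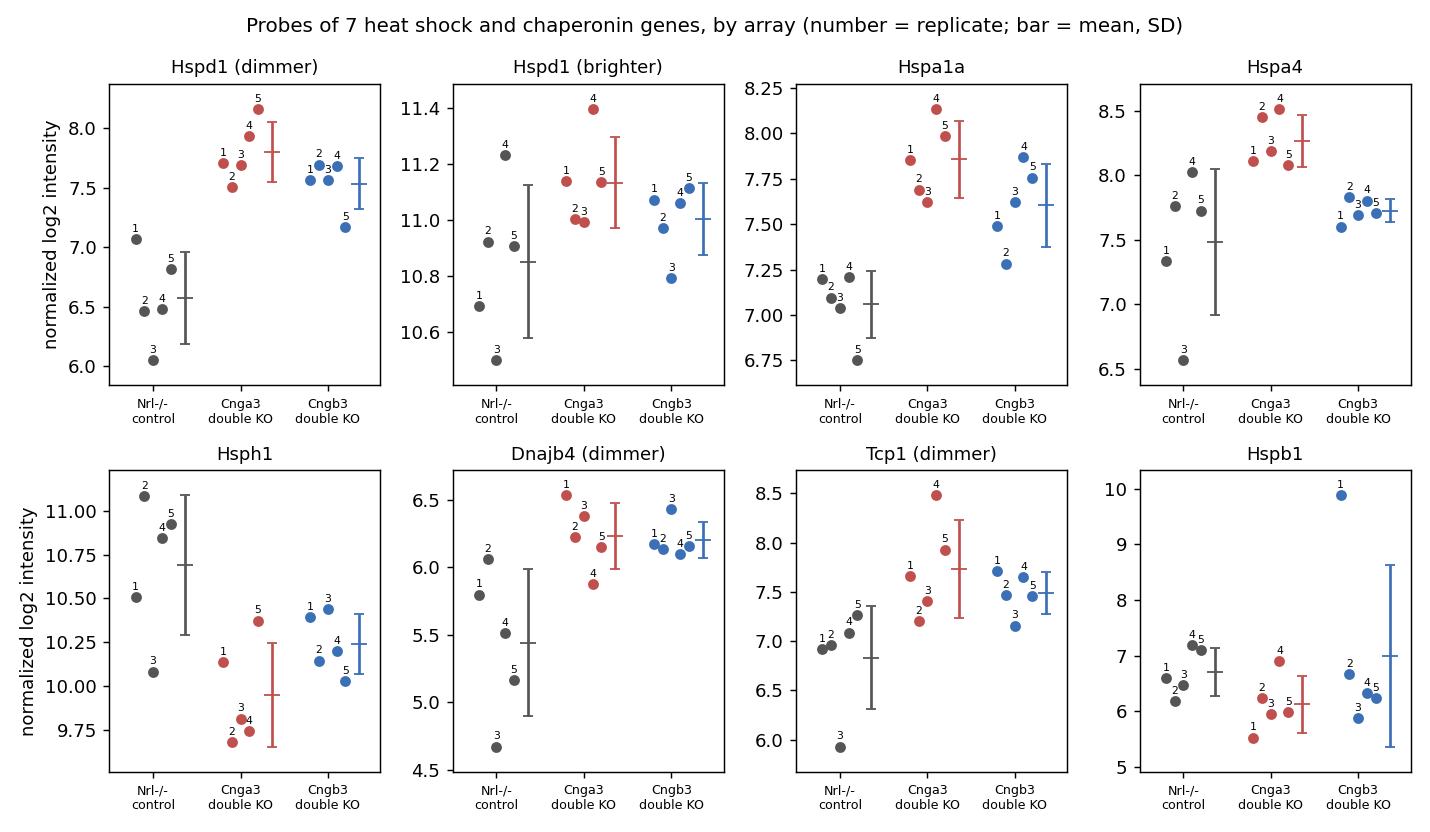
Normalized log2 intensity (vertical axis, a different range in each panel) of 8 probes of 7 genes on each of the 15 arrays, numbered by replicate, with the mean and SD of 5 arrays beside each group. The 5 arrays of both double knockouts lie above all controls for the dimmer Hspd1 probe and Hspa1a, while the brighter Hspd1 probe overlaps and Hspb1 stands out at 9.88 on Cngb3 replicate 1.

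Among the HSP70 and HSP110 genes, 3 of 10 probes were called for Cnga3, 2 higher and 1 lower, and 0 of 10 for Cngb3, where 5 passed an unadjusted p under 0.05. Those 5 were Hspa1a, both Hspa2 probes and the dimmer Hspa8 probe, all higher, and Hsph1, lower. Of all kept probes, 8.04% and 2.68% were called for Cnga3 and Cngb3, and 25.8% and 20.4% passed the unadjusted threshold. These shares belong beside each count by role below. Hspa1a encodes a stress-inducible cytosolic HSP70. Its probe read 7.20, 7.10, 7.04, 7.21 and 6.75 on the controls, 7.85, 7.69, 7.62, 8.14 and 7.99 on the Cnga3 and 7.49, 7.28, 7.62, 7.87 and 7.76 on the Cngb3 double knockout arrays. All 10 double knockout arrays lay above all 5 controls. Hspa1a rose by 0.80 on the log2 scale (SE 0.143) in the Cnga3 double knockout, 1.74-fold, with an adjusted p of 0.00448 in limma, and kept its call in all 10 fits without 1 array. In the Cngb3 double knockout the log2 fold change was 0.55 (SE 0.143, 1.46-fold), with an adjusted p of 0.0523. That value passed without control replicate 1, at 0.0362, and without Cnga3 replicate 4, at 0.0311. Leaving out control replicates 1 and 3 gave values of 0.84 and 0.59, with adjusted p of 0.00649 and 0.0508. Hspa1b, whose transcript is nearly identical, had no probe by symbol, so whether the Hspa1a probe also reads it was not tested.

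Hspa4 encodes an HSP110-type nucleotide exchange factor. Its kept probe read 7.33, 7.76, 6.57, 8.02 and 7.73 on the controls, 8.11, 8.45, 8.19, 8.51 and 8.08 on the Cnga3 and 7.60, 7.83, 7.69, 7.80 and 7.71 on the Cngb3 double knockout arrays. The Cnga3 arrays were above every array of both other groups, while the Cngb3 arrays lay within the range of the controls. Hspa4 rose by 0.78 (SE 0.208, log2, 1.72-fold) in the Cnga3 double knockout, with an adjusted p of 0.0306 in limma, and gave 0.24 (SE 0.208, adjusted p = 0.534) for Cngb3. The call was lost without Cnga3 replicate 2, at an adjusted p of 0.0704, and without Cnga3 replicate 4. Without control replicates 1 and 3, of which replicate 3 was the lowest, the Cnga3 value was 0.43 with an adjusted p of 0.0614 and the Cngb3 value -0.11.

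Hsph1, which encodes HSP105, another nucleotide exchange factor of the HSP110 type, was the 1 chaperone probe that fell. It read 10.51, 11.08, 10.08, 10.84 and 10.93 on the controls, 10.14, 9.68, 9.81, 9.74 and 10.37 on the Cnga3 and 10.40, 10.15, 10.44, 10.20 and 10.03 on the Cngb3 double knockout arrays. Control replicate 3 lay among the double knockout arrays, and the other controls lay above all of them. The log2 fold change was -0.74 (SE 0.185, 1.67-fold lower) for Cnga3 with an adjusted p of 0.0237 in limma, and -0.45 (SE 0.185) for Cngb3 with an adjusted p of 0.184. The Cnga3 call was lost without Cnga3 replicate 2, control replicate 2 or control replicate 5, with adjusted p up to 0.0661, and under median centring, at -0.63 with 0.0946. Without control replicates 1 and 3 the values were -1.002 and -0.71, with adjusted p of 0.00214 and 0.0218.

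The constitutive HSP70 of the cytosol, Hspa8, had on its brighter probe 14.24 ± 0.338 in controls (SD, n = 5), 14.36 ± 0.166 in the Cnga3 and 14.41 ± 0.119 in the Cngb3 double knockout. Its log2 fold changes were 0.12 (SE 0.151, adjusted p = 0.656 in limma) and 0.16 (SE 0.151, adjusted p = 0.57). The dimmer Hspa8 probe gave 0.48 (adjusted p = 0.123) and 0.64 (adjusted p = 0.0797), and the latter passed without control replicate 1 (0.0338) and without Cnga3 replicate 4 (0.0385). Hspa2, an HSP70 best known from the testis, had 2 probes, and all 5 Cngb3 arrays of the brighter one, 8.60 to 9.06, lay above the controls at 7.89 to 8.54, with an adjusted p of 0.0705. That probe passed for Cngb3 without control replicate 1 (0.034) and on the deposited log2 values (0.0466). The dimmer Hspa2 probe passed for Cngb3 without control replicates 1 and 3 (0.0334), without control replicate 3 (0.0389) and with array weights (0.0338). The probes of Hspa9, the mitochondrial HSP70, differed in sign for Cnga3, at -0.12 and 0.29, and neither passed. Hspa4l gave 0.47 (SE 0.248, adjusted p = 0.244) and 0.24.

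The J-domain proteins are the HSP70 partners that deliver clients, and 1 of their 12 probes was called for Cnga3, 1 higher, and 0 for Cngb3. Dnajb4 is a cytosolic member. Its dimmer kept probe (ILMN_2619611), detected on 3 of 5 controls and on all 10 double knockout arrays, read 5.80, 6.06, 4.67, 5.51 and 5.17 on the controls, 6.53, 6.22, 6.38, 5.88 and 6.15 on the Cnga3 and 6.17, 6.14, 6.44, 6.10 and 6.16 on the Cngb3 double knockout arrays. The Cngb3 arrays were above all controls, and Cnga3 replicate 4 lay below control replicate 2. The log2 fold change was 0.79 (SE 0.209, 1.73-fold, adjusted p = 0.0302 in limma) for Cnga3 and 0.76 (SE 0.209, 1.69-fold, adjusted p = 0.063) for Cngb3. The Cnga3 call was lost in 5 of 10 fits, those without Cnga3 replicate 1, 2, 3 or 5 or control replicate 5, with adjusted p up to 0.0657. The values were 0.65 and 0.62 without control replicates 1 and 3, with adjusted p of 0.0409 and 0.0639. The Cngb3 value passed without control replicate 1 (0.0329), control replicate 2 (0.0351) or Cnga3 replicate 4 (0.0454). The brighter probe gave 0.46 (SE 0.276, adjusted p = 0.308) and 0.06 (SE 0.276, adjusted p = 0.922), with overlapping groups.

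The other J-domain genes ran from -0.33 for Dnaja3, a mitochondrial member, to 0.47 for the dimmer Dnaja2 probe in the Cnga3 comparison, and from -0.22 for Dnajb5 to 0.53 for Dnajb1, the main stress-inducible HSP40, in the Cngb3 comparison. Dnajb1 lay at 11.06 to 12.05 in the controls and at 11.85 to 12.14 in the Cngb3 double knockout, with an adjusted p of 0.16. It passed for Cngb3 without control replicate 1, at 0.68 with an adjusted p of 0.049 in limma. The dimmer Dnaja2 probe passed for Cnga3 without control replicate 4, at 0.69 with 0.0179. The 2 probes of Dnajb6 differed in sign for Cnga3, at 0.29 and -0.18. Dnajc5, the cysteine string protein of synaptic vesicles, had means of 11.85 ± 0.255, 11.74 ± 0.667 and 11.91 ± 0.124 and log2 fold changes of -0.10 (SE 0.241) and 0.06. Of the BAG exchange factors, 0 of 3 probes were called in either comparison, by adjusted p, and at an unadjusted p under 0.05 there were 0 for Cnga3 and 1 for Cngb3. Bag1 had means of 11.82 ± 0.2, 11.76 ± 0.207 and 11.81 ± 0.0866, and Bag3, the stress-inducible member, gave 0.06 and 0.45 (SE 0.213 each, adjusted p = 0.88 and 0.244). The Cngb3 value of Bag3 passed without control replicates 1 and 3, at 0.79 with an adjusted p of 0.0154 in limma. It also passed without control replicate 1 alone, at 0.64 with 0.049.

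Neither HSP90 probe was called, though both passed an unadjusted p under 0.05 for Cnga3 and 0 of 2 did for Cngb3. Hsp90aa1, the inducible cytosolic HSP90, read 9.46, 10.31, 8.08, 10.73 and 10.99 on the controls, 10.76, 10.59, 10.19, 11.92 and 11.44 on the Cnga3 and 10.65, 10.02, 10.26, 10.60 and 10.40 on the Cngb3 double knockout arrays. Control replicate 3 was the lowest array and Cnga3 replicate 4 the highest, and the groups overlapped. The log2 fold change for Cnga3 was 1.06 (SE 0.439, adjusted p = 0.137 in limma), and it was 0.61 without control replicate 3 and 0.30 without control replicates 1 and 3. For Cngb3 it was 0.47 (adjusted p = 0.573), and -0.29 without both. Trap1, the mitochondrial HSP90, gave -0.64 (SE 0.238, adjusted p = 0.102) and -0.20, with Cnga3 replicate 4 at 7.61 and the other 4 of its group at 8.65 to 9.17.

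The HSP90 cochaperones and adaptors, which time the HSP90 cycle or bring clients to it, had 0 of 7 probes called in either comparison, and 0 also at an unadjusted p under 0.05. Their log2 fold changes ran from -0.18 for Ptges3, or p23, to 0.21 for Fkbp5 in the Cnga3 comparison and from -0.36 for Ptges3 to 0.05 for Cdc37, the kinase adaptor, in the Cngb3 comparison. Fkbp4, an immunophilin of steroid receptor complexes, read 12.45, 12.41, 12.81, 12.46 and 12.47 on the controls, 12.34, 12.46, 12.73, 12.29 and 12.32 on the Cnga3 and 12.37, 12.26, 12.39, 12.15 and 12.29 on the Cngb3 double knockout arrays. All Cngb3 arrays were below all controls, by a log2 fold change of -0.23 (SE 0.121) with an adjusted p of 0.305. The Cnga3 value was -0.09 (adjusted p = 0.668).

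The small heat shock proteins had 0 of 3 probes called in either comparison, with 1 for Cnga3 and 0 for Cngb3 at an unadjusted p under 0.05. Hspb6 had means of 13.65 ± 0.204, 13.41 ± 0.27 and 13.52 ± 0.0747 and log2 fold changes of -0.24 (SE 0.139, adjusted p = 0.281 in limma) and -0.13. Hspb8, a partner of Bag3, gave -0.65 (SE 0.242, adjusted p = 0.104) for Cnga3. On it 4 of the 5 Cnga3 arrays, at 6.18 to 6.44, were below all controls at 6.93 to 7.62, and replicate 4 was above them at 7.67. Without Cnga3 replicate 4 Hspb8 passed, at -0.91 with an adjusted p of 0.00537. Hspb1, or HSP25, read 9.88 on Cngb3 replicate 1 and 5.88 to 6.66 on the other 4 arrays of that group, and 5.53 to 7.18 on the other 10 arrays. Its log2 fold changes were -0.58 (SE 0.552) and 0.29 (SE 0.552).

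The cytosolic chaperonin TRiC is a ring of different CCT subunits that folds actin and tubulin. It had 1 of 9 probes called for Cnga3, 1 higher, and 0 for Cngb3, where 1 passed an unadjusted p under 0.05. Tcp1 encodes CCT alpha, and its dimmer probe (ILMN_2774140) read 6.92, 6.96, 5.93, 7.09 and 7.27 on the controls, 7.66, 7.20, 7.41, 8.48 and 7.93 on the Cnga3 and 7.71, 7.47, 7.16, 7.65 and 7.46 on the Cngb3 double knockout arrays. Only Cnga3 replicate 2 of its group lay below the highest control, and control replicate 3 was the lowest of all arrays. The log2 fold change was 0.90 (SE 0.249, 1.87-fold, adjusted p = 0.0356 in limma) for Cnga3 and 0.66 (SE 0.249, adjusted p = 0.151) for Cngb3. The Cnga3 call was lost in 5 of 10 fits, those without control replicate 2 or 3 or Cnga3 replicate 1, 4 or 5, with adjusted p up to 0.0852, and without control replicates 1 and 3 it was 0.63 with 0.0959. The brighter Tcp1 probe gave 0.66 (SE 0.299, adjusted p = 0.173) and 0.63 (SE 0.299, adjusted p = 0.245), with control replicate 3 at 8.57 and the other 4 controls at 10.27 to 10.66.

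No probe of the other CCT subunits was called. Of all 9 TRiC probes, 7 were above 0 for Cnga3 (77.8%) and 5 for Cngb3 (55.6%), against 49.4% and 49.5% of all kept probes. Cct5 gave 0.72 (SE 0.245, adjusted p = 0.0759 in limma) and Cct4 0.35 (SE 0.25) for Cnga3, and Cct5 passed with the replicate number as a block (0.0387). Cct7 gave -0.14 (SE 0.204), and the 2 probes of Cct3 gave -0.17 (SE 0.181) and 0.13 (SE 0.184), each within its SE of 0. Cct8 had means of 10.93 ± 0.522, 10.98 ± 0.135 and 10.92 ± 0.0882 and log2 fold changes of 0.05 (SE 0.191), or -0.27 without control replicates 1 and 3, and -0.01. Cct2, detected on 3, 5 and 4 of the 5 arrays of the groups, gave 0.12 for Cnga3. Hsf2, the 1 heat shock factor with a kept probe, had means of 7.24 ± 0.399, 7.01 ± 0.342 and 7.29 ± 0.247 and log2 fold changes of -0.24 (SE 0.201, adjusted p = 0.481) and 0.04 (SE 0.201, adjusted p = 0.927).

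The double knockouts were also compared with each other, which asks whether loss of the A3 subunit and of the B3 subunit leave different chaperone levels. No chaperone probe was called, with 0 of 50 by limma, against 0.405% of all kept probes (0.184% higher and 0.222% lower in the Cnga3 double knockout). At an unadjusted p under 0.05 there were 3 of 50 (6%), against 14.5%. Hspa4 was the 1 probe of the 50 with groups that did not overlap, at 0.54 higher in the Cnga3 double knockout (SE 0.208, log2, adjusted p = 0.248). The dimmer Hspd1 probe differed by 0.26 (SE 0.181, adjusted p = 0.525) and Hspa1a by 0.25 (SE 0.143, adjusted p = 0.426). The call of Hspa1a, Hspa4 and Hsph1 for Cnga3 alone is therefore not a shown difference between the double knockouts. With arrays weighted by their residual spread, Hspa4 (0.54, adjusted p = 0.0165) and the dimmer Dnajb6 probe (-0.47, adjusted p = 0.0358) passed. That setting called 1170 of all 13077 kept probes between the double knockouts, against 53 in the main fit.

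Chaperone probes whose groups did not overlap numbered 3 of 50 (6%) for Cnga3, 5 (10%) for Cngb3 and 1 (2%) between the double knockouts, against 6.74%, 6.69% and 4.93% of all kept probes. The spread within a group was widest in the controls, where the median SD of the 50 probes was 0.384, against 0.308 over all kept probes. In the Cnga3 double knockout these medians were 0.259 and 0.268, and in the Cngb3 double knockout 0.17 and 0.186. Control replicate 3 was the lowest of the 5 controls on 31 of the 50 chaperone probes (62%), against 25.8% of all kept probes, and the other 4 controls on 8% to 10% each. Probes on which it lay far below the mean of the 15 arrays included Hsp90aa1, both Tcp1 probes, Cct4, Cct5, Hspa4 and Cdc37, as the map of deviations shows. They also included the dimmer probes of Hspd1, Dnajb4 and Hspa9. Each of the 6 called probes kept its sign without this array, and the Cnga3 values of Hspa4 and the dimmer Tcp1 probe were 0.56 and 0.68 without it. Those of the dimmer Hspd1 and Dnajb4 probes were then 1.09 and 0.60.

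**Figure D3:**
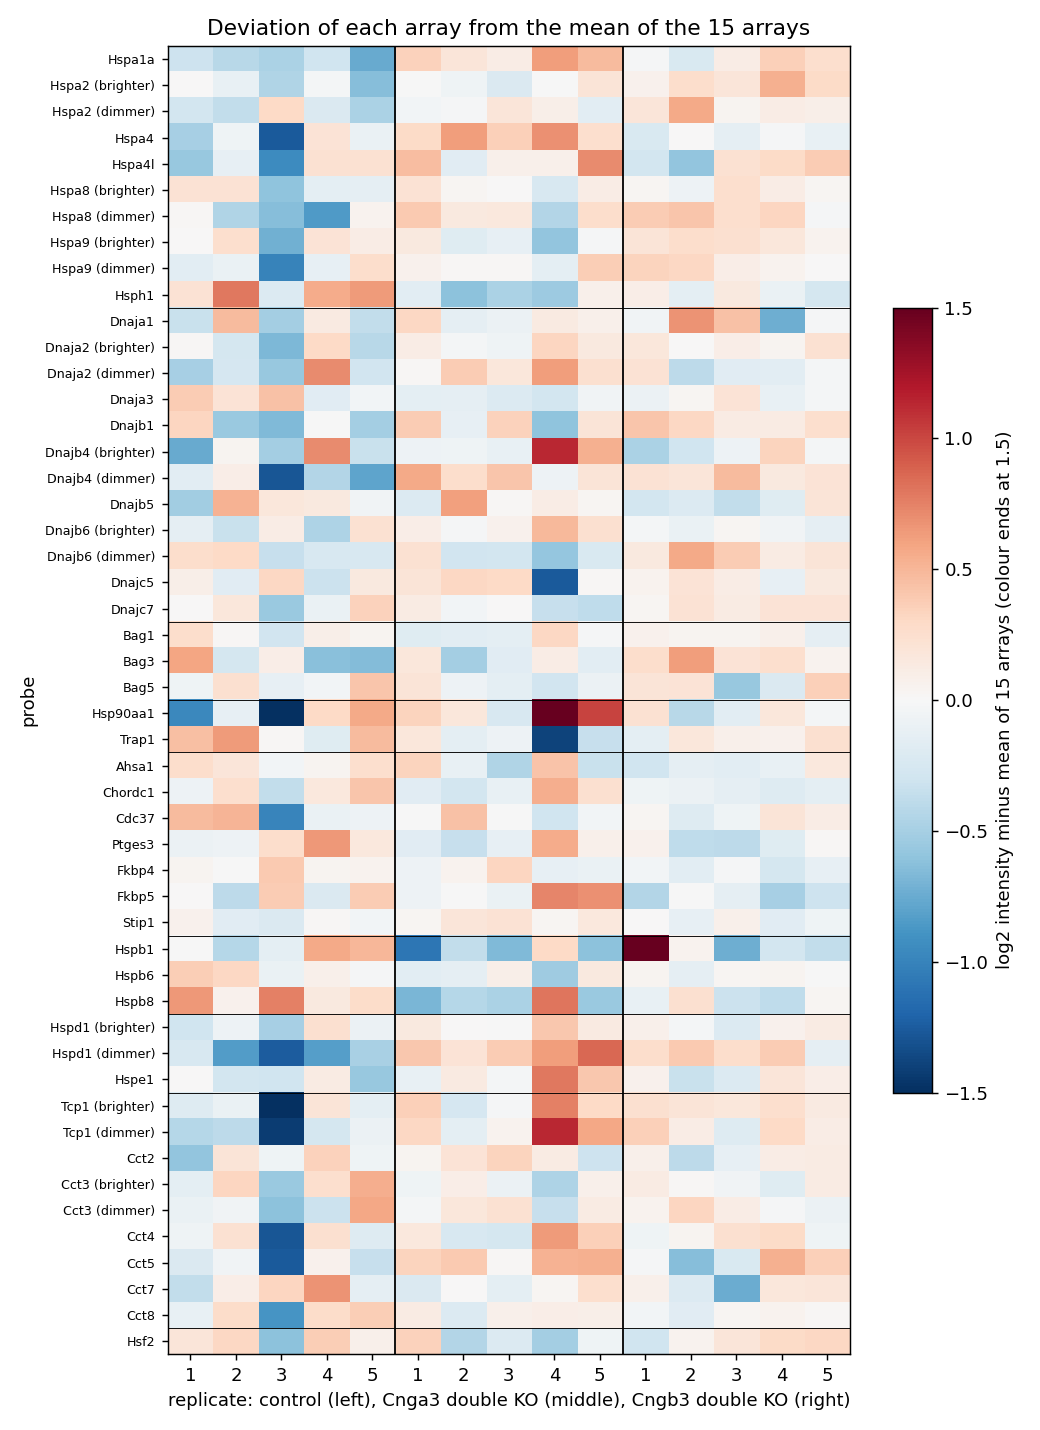
Normalized log2 intensity of the 50 kept chaperone probes (rows, by role) on the 15 arrays (columns, by group and replicate), each minus the mean of that probe over all 15 arrays, with the colour scale ending at 1.5 on either side. Control replicate 3 is the bluest column of the controls, lowest of its group on 31 of 50 rows, and Cnga3 replicate 4 holds both high and low rows.

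**Figure D4:**
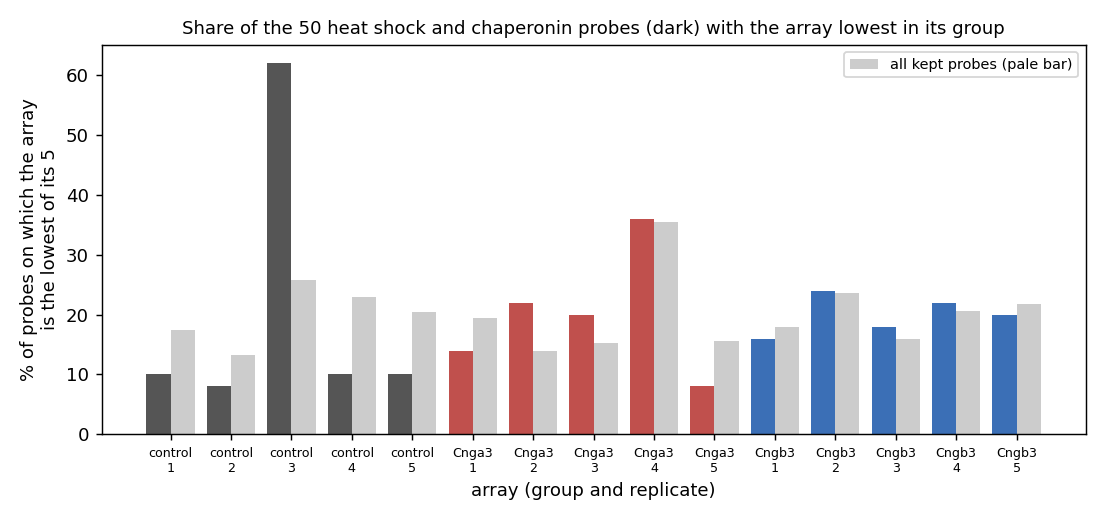
Percent of probes (vertical axis) on which an array is the lowest of the 5 in its group, for the 50 chaperone probes (dark or coloured bars) and all 13077 kept probes (pale bars), by array. Control replicate 3 reaches 62% against 25.8%, while Cnga3 replicate 4 reaches 36% against 35.5%.

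Cnga3 replicate 4 stood apart in its own group in both directions, lowest on 36% and highest on 38% of the chaperone probes, against 35.5% and 34.2% of all kept probes. It was the highest of its group on Hsp90aa1, both Tcp1 probes, Hspa4 and the brighter Dnajb4 probe, and the lowest on Trap1, Dnajc5 and both Hspa9 probes. Its summed markers of pigment epithelium, at 14.98, and of microglia, at 11.33, were also the highest of its group, whose other arrays lay at 13.09 to 13.70 and 9.87 to 10.38. For pigment epithelium the controls lay at 14.01 to 14.81 and the Cngb3 arrays at 14.33 to 15.10. The other Cnga3 arrays, not replicate 4, were thus below both of those groups. For microglia the controls lay at 9.19 to 10.93 and the Cngb3 arrays at 9.86 to 10.08. The part of those cells in the chaperone values of Cnga3 replicate 4 was not tested. The dimmer Hspd1 probe and Hspa1a gave 1.19 and 0.73 for Cnga3 without it, with adjusted p of 0.00338 and 0.00753.

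A further 84 chaperone and folding genes outside the set, among them prefoldins, tubulin folding cofactors and other J-domain and BAG genes, had 77 kept probes of 63 genes. In each comparison 1 of the 77 (1.3%) was called. Of all kept probes, 8.04% were called for Cnga3, 2.68% for Cngb3 and 0.405% between the double knockouts. Bag6, which guards newly made membrane and mislocalised proteins, read 9.79 to 10.26 in the controls, 10.23 to 11.08 in the Cnga3 and 9.68 to 10.03 in the Cngb3 double knockout. It rose by 0.56 on the log2 scale (SE 0.157, adjusted p = 0.0387 in limma) in the Cnga3 double knockout against controls and was 0.85 higher (SE 0.157, adjusted p = 0.0251) there than in the Cngb3 double knockout, where no array overlapped. Without control replicates 1 and 3 the Bag6 value against controls was 0.49, with an adjusted p of 0.0829. Dnajc14 read 5.40 to 5.93 in the controls and 4.76 to 5.39 in the Cngb3 double knockout, and fell by 0.67 on the log2 scale (SE 0.152, adjusted p = 0.026). Its mean level, 5.38, was near background, so the size of this fall rests on the background correction. Aipl1, the photoreceptor chaperone of phosphodiesterase, gave 0.45 (SE 0.162, adjusted p = 0.0931) and -0.04 against the controls.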

How the data were processed

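Retinal RNA was measured on 15 arrays, 3 groups of 5 mice, grouped by the labels. Per the labels' protocols, RNA was taken up in a phenol reagent, purified on columns and biotin-labelled by an amplification kit. The submitters' processing notes name GenomeStudio, with no version or settings. The deposited non-normalized file holds 1 linear intensity and 1 detection p-value per probe and array, per the file headers. The deposited value table holds log2 values of the authors. They equal log2 of the quantile-normalized intensities to within 0.000646, with a median of 7.2552 on every array. No slide, batch or scan date was given.

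Here the intensities were corrected by neqc of limma 3.58.1 (R 4.3.3), which fits the background from the detection p-values, uses quantile normalization and returns log2 values with an offset of 16. The filter asked for detection p under 0.01 on 5 or more arrays and left 13077 of 25697 probes, of 9097 genes. The platform annotation names 23978 probes by 1 symbol each and leaves 1719 unnamed, and symbols can be old. The 3 groups entered 1 linear model with eBayes, 12 residual and 4.73 prior degrees of freedom, with Benjamini-Hochberg adjustment over all kept probes of a contrast. Errors of fold changes are SE, errors of means SD. P-values measure the spread between animals pooled over all 3 groups, in which the controls were the widest and the Cngb3 double knockout the tightest. They do not measure the spread of only the 2 groups compared, and 5 arrays per group limit the precision.

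The genes, role lists and comparisons were chosen with earlier results of these data known. Values were given for every kept chaperone probe called in any contrast, every Hspd1 probe, the kept probe of each role with the highest mean intensity over the 15 arrays, and the kept probes of Hspa1a and Hsf2. Others are given as ranges, or were chosen after their values were seen. A count by gene used the brightest kept probe. Probes bind unequally, so intensity served to choose which probe to describe and ranks no transcript above another. Alternatives were the deposited log2 values, median centring, an offset of 50, no filter, detection on all 15 arrays, fits of only 2 groups, array weights, leaving out arrays, and the replicate number as a block. Arrays with the same number correlated between -0.107 and 0.28 in their deviations from group means, over 0.1 in 4 of 15 pairs, so the numbers were not used as pairs.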

Additional observations from a re-analysis of the deposited data

Results flagged for a closer look

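In groups of 5 arrays, 7 values of the named probes lay apart from the other 4 by more than 0.71 of the range of their group, among 45 sets of a probe and a group. The nominal rate is about 1 in 20 sets for independent, normally distributed values. Sets that share an array are not independent, so that rate is no test of these counts. Over all kept chaperone probes there were 14 in 150 sets, of which 5 lay on control replicate 3. The dimmer Hspd1 probe was 7.17 on Cngb3 replicate 5 and 7.56 to 7.69 on the others of its group. The dimmer Dnajb4 probe was 6.44 on Cngb3 replicate 3, against 6.10 to 6.17. Bag1 was 11.66 on Cngb3 replicate 5, against 11.83 to 11.87. The dimmer Tcp1 probe was 5.93 on control replicate 3, against 6.92 to 7.27. Fkbp4 was 12.81 on control replicate 3, the high end of its group, against 12.41 to 12.47. Dnajc5 was 10.57 on Cnga3 replicate 4, against 11.85 to 12.14. Cct8 was 10.74 on Cnga3 replicate 2, against 11.02 to 11.07.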

How the results depend on the processing

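Of the values of named chaperone probes recomputed under the alternatives that keep every array or leave out control replicates 1 and 3, 240 kept direction and side of the threshold, 9 no longer passed, 4 newly passed and 13 changed sign, all 13 of them not called. Under median centring these were Bag1, at 0.022 for Cnga3 and 0.020 for Cngb3, and Cct8 for Cngb3 at 0.028. Under array weights they were, for Cnga3, Dnajc5 at 0.26, Fkbp4 at 0.025 and Cct8 at -0.16, and, for Cngb3, Hsf2 at -0.12. With control replicates 1 and 3 left out they were, for Cnga3, Dnajc5 at 0.024 and Cct8 at -0.27, and, for Cngb3, Hspa4 at -0.11, Hsp90aa1 at -0.29, the brighter Hspd1 probe at -0.018 and Hsf2 at -0.14. Leaving out single arrays took 8 values that were not called across 0: for Cnga3, Hspa8 (-0.010 to 0.19), Dnajc5 (-0.20 to 0.19), Bag1 (-0.15 to 0.00022) and Cct8 (-0.16 to 0.15), and, for Cngb3, Dnajc5 (-0.021 to 0.14), Bag1 (-0.085 to 0.053), Cct8 (-0.22 to 0.090) and Hsf2 (-0.13 to 0.14). For Cnga3 against the controls, 323 probes and 2 chaperone probes (the dimmer Hspd1 probe and Hspa1a) were called with only those groups in the fit, and 1880 probes with array weights. For Cngb3, the chaperone count was 2 on the deposited values, 2 with detection on all 15 arrays, 5 with array weights and 4 without control replicates 1 and 3, when all called probes numbered 230 with only those groups fitted, 1054 with array weights and 849 without those controls. Between the double knockouts, all calls numbered 201 under median centring (85.1% higher, against 45.3%), 1170 with array weights, 94 without control replicates 1 and 3 and 122 with the replicate block, and array weights called 2 chaperone probes. With the replicate number as a block the Cnga3 and Cngb3 calls were 1107 and 387, with 7, 1 and 0 chaperone probes, and in 4 of 15 pairs the deviations of same-numbered arrays correlated over 0.1. Leaving out each array in turn gave 551 to 1229 calls for Cnga3 with 3 to 7 chaperone probes, 130 to 828 for Cngb3 with 1 to 7, and 19 to 180 between the double knockouts with 0 to 0. The chaperone count for Cnga3 was 3 without Cnga3 replicate 2. For Cngb3 it was 7 without control replicate 1, 4 without Cnga3 replicate 4, and 2 without control replicate 2 or 3. The cause was not tested. Signal near background limits the dimmer Dnajb4 probe, Cct2, Cdc37, Dnajb5 and Dnaja1, and, outside the set, Dnajc14.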

Other observations

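On Cngb3 replicate 1, Hspb1 at 9.88 was the probe that stood furthest above its highest value on any other array, 7.18. The same array held 5 probes at least 2-fold above every other array. The others were Hmox1, the inducible heme oxygenase, at 7.87 against 5.89, and the lens genes Cryga at 13.46 against 11.46, Lgsn at 11.81 against 9.93 and Cryge at 11.30 against 9.45. These genes were chosen after their values were seen. On Cnga3 replicate 4 there were 34 such probes.

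Cryab, a small heat shock protein that is also a lens crystallin and belongs to the wider chaperone list, had log2 fold changes of 1.33 for Cnga3 and 2.16 for Cngb3 (SE 0.786 each), with adjusted p of 0.296 and 0.136 in limma. It lay at 8.32 and 8.48 on control replicates 1 and 3, the arrays with little lens signal, and at 12.20 to 13.09 on the other controls. Without those 2 arrays the log2 fold changes were -0.42 and 0.42, with adjusted p of 0.424 and 0.457.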
